A study of Mus musculus with 3 samples.

Results

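The adventitial-like fibroblasts of 4T1 tumours were 491 cells out of 16353 kept cell barcodes, 129 in the library of control tumours and 362 in the library of tumours from Cpt1a-targeted cells. They were selected on measured values. Kept barcodes had 200 genes or more, and mitochondrial transcripts made up no more than 20% of their UMIs (unique molecular identifiers, each a counted transcript copy). It counted as a fibroblast where Col1a1, Col1a2 and Col3a1, which encode chains of collagens I and III, together made up at least 1% of its UMIs, and where genes of tumour epithelium (Wfdc2, Krt8 and Krt18, under 0.1% summed), pericytes (Rgs5, under 0.05%) and macrophages (C1qa, C1qb and C1qc, under 0.1%) were low. Of 869 such fibroblasts, those with Clec3b, Apod, Mfap4, Pi16 and Dpp4 at 0.05% or more of UMIs in sum were the members. The other 378 (249 and 129) are called the other fibroblasts.

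Adventitial fibroblasts line the outer coat of vessels and the fascia-like sheets of connective tissue. In mouse organs a Pi16 and Dpp4 positive type is described as a broadly distributed, progenitor-like fibroblast, from which more specialised fibroblasts are thought to arise. In tumours, contractile myofibroblastic cells that deposit and pull on matrix, and inflammatory cells that secrete cytokines and chemokines, are the other fibroblast states most often described. Clec3b encodes tetranectin, a plasminogen-binding lectin, Apod the lipid carrier apolipoprotein D, Mfap4 a microfibril-associated protein, Pi16 a secreted peptidase inhibitor family member and Dpp4 the surface peptidase CD26.

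The 4T1 line is a mouse mammary carcinoma line that grows as a transplanted tumour in mice. The sgVC group were tumours of 4T1-sgVC cells, labelled wild type, and the sgCPT1A group tumours of 4T1-sgCPT1A cells, labelled as a CPT1A knockdown. CPT1A moves long-chain fatty acids onto carnitine for entry into mitochondria. The labels place the guide in the injected line, so the fibroblasts, which come from the mouse, carry no labelled change. All mice were female, 8 to 10 weeks old, and were housed for 8 days with their tumours. Whole tumours were digested for 10 minutes with papain and DNase, with no sort, and single cells were profiled by 10x Genomics 3′ sequencing. The labels do not say whether the line was 1 clone or how many tumours went into a library. The series asked how the cell makeup of the tumour differed upon loss of Cpt1a.

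Counts of a single library stood for each group, so no comparison between the groups has a replicate check and none is tested. The labels list a further sgCPT1A sample, which is not analysed here separately, and whether its reads are part of the sgCPT1A counts is not known. All intervals are 95% intervals and cover counting error only. Each UMI is counted at the 3′ end of a transcript, and levels are given as CPM, the summed UMIs of a gene over the summed UMIs of a group of cells, scaled to 1e6.

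The libraries held 155948212 UMIs over 9890 barcodes (sgVC) and 35557125 UMIs over 7198 barcodes (sgCPT1A). Members had a median of 11354 UMIs (741 to 30883) and 3335 genes in sgVC and of 25804 UMIs (567 to 64701) and 4758 genes in sgCPT1A, so the sgCPT1A members were the more deeply read. The libraries shared 18 barcodes, and 1 of them was a member in one library, none in both. Scrublet called 291 barcodes of sgVC doublets (3.03%), 3 of them members. It called 1 in sgCPT1A (0.0148%), where the caller is taken not to have worked. Barcodes at or over the limit for tumour epithelium were 46.1% of those kept in sgVC (4430) and 0.593% in sgCPT1A (40), where Cpt1a stood at 16.7 CPM (16 to 17.4) and 30.4 CPM (19.5 to 45.3). The level of a 3′ tag does not show whether a guide disrupted the protein. In members Cpt1a stood at 40.0 CPM (30.8 to 51.2) in sgVC and 44.7 CPM (40.4 to 49.4) in sgCPT1A, with overlapping intervals. In the other fibroblasts it stood at 24.0 CPM (19.4 to 29.3) in sgVC and 49.4 CPM (42.0 to 57.7) in sgCPT1A, and the intervals did not overlap.

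Of the genes that chose the members, Pi16 (chromosome 17, 29317680 to 29330593; GRCm38, GENCODE M21, as for all coordinates here) stood at 821 CPM in sgVC members and 780.2 in sgCPT1A members, against 49.2 and 56.8 CPM in the other fibroblasts. Clec3b (chromosome 9, 123150946 to 123157432) stood at 174 and 329 CPM against 14.7 and 27.0. Apod (chromosome 16, 31296192 to 31314808) stood at 134 and 247 CPM against 17.2 and 19.9. These differences follow from the rule and are given as a description. Mfap4 (chromosome 11, 61485431 to 61488900) stood at 159 and 448 CPM against 54.9 and 106, and Dpp4 (chromosome 2, 62330073 to 62412231) at 60.4 and 57.5 against 4.74 and 12.4. The members of the 2 libraries met the limit through a different mix of these genes. Pi16 alone sufficed for 81 of 129 sgVC members (62.8%) and 168 of 362 sgCPT1A members (46.4%), and 69 (53.5%) and 61 (16.9%) would have missed the limit without it. Mfap4 alone sufficed for 17 sgVC members (13.2%) and 132 sgCPT1A members (36.5%).

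The summed share of the 5 genes had a median of 0.120% in sgVC members and 0.160% in sgCPT1A members, and reached 0.484% and 1.22%. The members nearest to the limit had 0.0503% (sgVC) and 0.0507% (sgCPT1A), and the fibroblasts just outside it 0.0493% and 0.04996%. Near the limit, 51 sgVC and 92 sgCPT1A fibroblasts lay at 0.05 to under 0.1%, and 52 and 48 at 0.025 to under 0.05%. The share formed 1 continuous range with no gap at the limit and the members are a range of that score. Whether they would form a cluster over all genes was not tested. In each library 7 members rested on 1 or 2 UMIs of the rule genes, while 87 of 129 (67.4%) and 331 of 362 (91.4%) had at least 10.

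**Figure D1:**
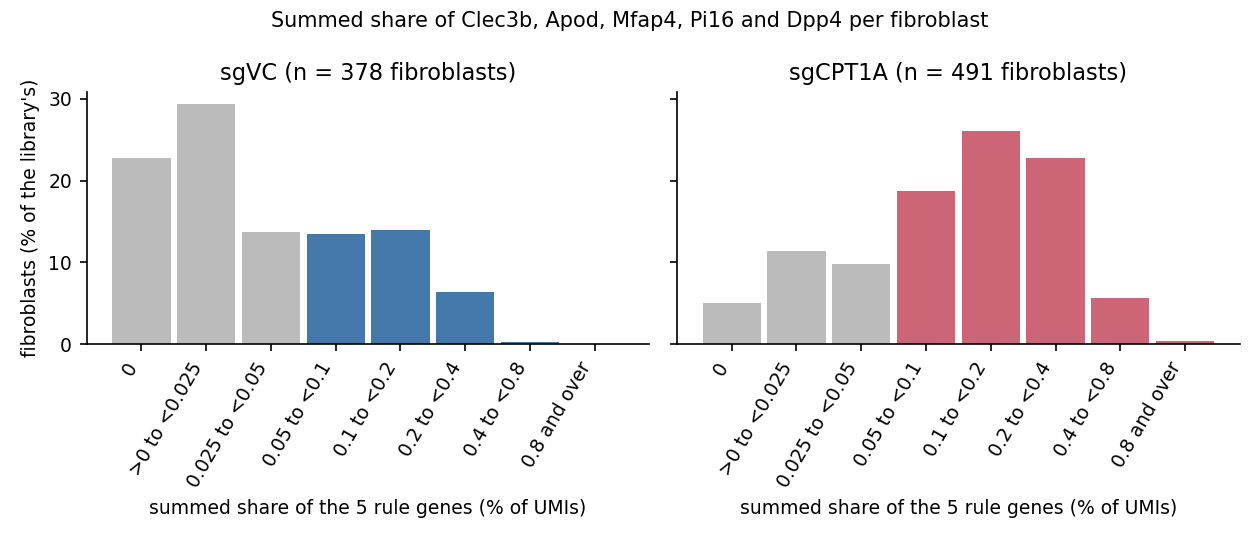
Fibroblasts of each library by the summed share of Clec3b, Apod, Mfap4, Pi16 and Dpp4 among their UMIs (x axis, percent), as a percentage of the library's fibroblasts (y axis; 378 in sgVC, 491 in sgCPT1A). Grey bars lie under the limit of 0.05%, coloured bars are the members: 34.1% of fibroblasts in sgVC and 73.7% in sgCPT1A, with no gap at the limit.

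Genes outside the rule marked the members as fibroblasts. Dcn, the collagen-binding proteoglycan decorin, had UMIs in every member (6036 CPM for sgVC, 8254 for sgCPT1A). Lum, the proteoglycan lumican, stood at 1600.5 and 2005 CPM, and Pdgfra, a PDGF receptor of fibroblasts, at 600.4 and 604. Of other cell types, endothelial markers summed to 33.0 CPM in sgVC members and 31.0 in sgCPT1A members, with Cdh5, Emcn and Cldn5 at 0 in both. Pericyte and smooth muscle markers summed to 91.5 and 61.5 CPM in members and to 356 and 206 CPM in the other fibroblasts. Most of that difference was Acta2, at 57.2 and 21.5 CPM in members and 329 and 191 CPM in the others. Of the 4 markers measured outside the rule, 2 were at least 1.5-fold higher and 2 lower in members of each library. Tumour epithelial markers summed to 40.7 and 4.28 CPM, of which the rule itself capped Wfdc2, Krt8 and Krt18. The pericyte and macrophage sums likewise hold genes that the rule capped. Neutrophil markers differed between the libraries: all 8 summed to 193 CPM in sgVC members, with Cxcr2 and Retnlg at 0, and to 569 CPM in sgCPT1A members. The other fibroblasts had 237 and 1224 CPM, and barcodes outside the collagen limit 1874 and 34088 CPM. Leukocyte markers summed to 149 and 97.6 CPM in members and 154 and 199 CPM in the other fibroblasts. All 6 were at least 1.5-fold lower in members in sgCPT1A, and 0 in sgVC. The other sgCPT1A fibroblasts thus held more leukocyte RNA than the members, which enters the ratios against them. Macrophage markers summed to 324 and 316 CPM, mostly Apoe, which fibroblasts also express.

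Members made up 34.1% of fibroblasts in sgVC (129 of 378; exact Clopper-Pearson interval 29.4 to 39.1%) and 73.7% in sgCPT1A (362 of 491; 69.6 to 77.6%), a 2.16-fold higher share and a log2 ratio of 1.11 (0.83 to 1.40). As a share of all kept barcodes they were 1.34% (1.12 to 1.59%) and 5.37% (4.84 to 5.93%), a log2 ratio of 2.0. The second ratio moves with the tumour cells: among kept barcodes under the tumour limit the shares were 2.49% and 5.40%, a log2 ratio of 1.12. The other fibroblasts went the other way, at 2.59% of kept barcodes in sgVC and 1.91% in sgCPT1A. The share of fibroblasts depended on Pi16, without which it was 15.9% and 61.3% (log2 ratio 1.95), and on the limit, which at 0.2% gave 6.61% and 28.9% (2.13). With barcodes thinned to 4000 UMIs before the rule, and shallower ones left out, it was 41.4% and 76.0% (0.88).

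Members were compared with the other fibroblasts of the same library, in which 8229 genes had at least 50 UMIs in each library. Outside the rule genes, 168 genes (2.04%) were at least 2-fold higher in members in both libraries and 131 (1.59%) at least 2-fold lower in both. The same cells chose the members and gave these values, so the comparison is a description. Of 30 genes known from adventitial fibroblasts of other tissues and not in the rule, all were measured, 23 in sgVC and 26 in sgCPT1A were at least 1.5-fold higher in members, and none was 1.5-fold lower. Their median log2 ratio was 1.34 in sgVC and 1.27 in sgCPT1A, beside -0.04 and -0.08 over all genes. Over all genes with at least 20 UMIs, 12.1% in sgVC and 12.5% in sgCPT1A were at least 1.5-fold higher, and 12.5% and 13.7% at least 1.5-fold lower.

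Cd34, a sialomucin of progenitor and stromal surfaces (chromosome 1, 194938819 to 194961279), stood at 346 CPM (317 to 376) in sgVC members and 38.9 CPM (33.1 to 45.6) in the other sgVC fibroblasts. In sgCPT1A it stood at 261 CPM (250.2 to 272) and 37.2 CPM (30.9 to 44.5). The members were thus 8.88-fold and 7.0-fold higher, and the intervals did not overlap in either library. With barcodes thinned to 4000 UMIs, Cd34 was seen in 67.5% of 114 sgVC members and 11.1% of 226 other fibroblasts, and in 45.7% of 348 sgCPT1A members and 11.1% of 117 others. This left out 15, 23, 14 and 12 shallower cells. Unthinned, the shares were 76.0%, 24.5%, 74.3% and 30.2%, at median depths of 11354, 15491, 25804 and 22975 UMIs. In barcodes rich in the neutrophil genes S100a8 and S100a9, which should lack Cd34, the thinned shares were 0 of 56 (up to 6.38%) in sgVC and 0.607% of 494 in sgCPT1A. Those barcodes had median depths of 1535 and 2710 UMIs before thinning.

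Several genes of secreted proteins were among the 12 with the highest ratios. Ogn, the small proteoglycan osteoglycin, stood at 217 against 22.2 CPM in sgVC and 299 against 31.7 CPM in sgCPT1A. Dpt, the collagen-binding dermatopontin, stood at 568 against 83.4 and 693 against 138 CPM. Both were higher in members of each library, Ogn by log2 ratios of 3.29 and 3.24 and Dpt by 2.77 and 2.33. Sfrp4, a secreted antagonist of Wnt ligands, stood at 524 against 40.7 CPM in sgVC and 273 against 36 CPM in sgCPT1A. Sema3c, a secreted semaphorin, stood at 94.7 against 8.49 and 81.9 against 17.1 CPM. Htra3, a secreted serine protease, stood at 587 against 135 and 626 against 116 CPM. These 3 genes were higher in members by log2 ratios between 2.12 (Htra3, sgVC) and 3.69 (Sfrp4, sgVC).

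Itih5, which encodes a hyaluronan-binding inhibitor heavy chain, was higher in members by log2 ratios of 2.83 in sgVC and 2.45 in sgCPT1A. Lrrn4cl gave 2.94 and 2.53, Tppp3, a tubulin polymerization-promoting protein and marker of tendon sheath cells, 2.30 and 2.59, and Cmah, a sialic acid hydroxylase, 2.24 and 2.26. The secreted lectins Reg1 and Reg3g also met the rule for the largest ratios, but few cells carried them. Reg1 stood at 226 against 29.2 CPM in sgVC, where 1 cell held 69.2% of the UMIs of the other fibroblasts, and at 89.5 against 2.79 CPM in sgCPT1A. Its log2 ratio in sgCPT1A was 5.0, and 0.31 with the limit at 0.2%. Reg3g stood at 273 against 59.9 and 218 against 41.6 CPM, where 1 cell held 71.6% of the UMIs of the other sgCPT1A fibroblasts. Of the adventitial list, the abundant Ly6a (the stem cell antigen Sca-1) gave 1.30 and 1.28, and Fn1 (fibronectin) 0.62 and 0.89. The scavenger receptor gene Scara5 gave 4.60 and 4.13, with 24.1 CPM in sgVC members and 54.5 in sgCPT1A members. Under alternative processing its ratios ran from 1.95 to 5.53 in sgVC and from 2.33 to 4.69 in sgCPT1A. Ly6a has near-identical neighbours among which reads can be split.

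**Figure D2:**
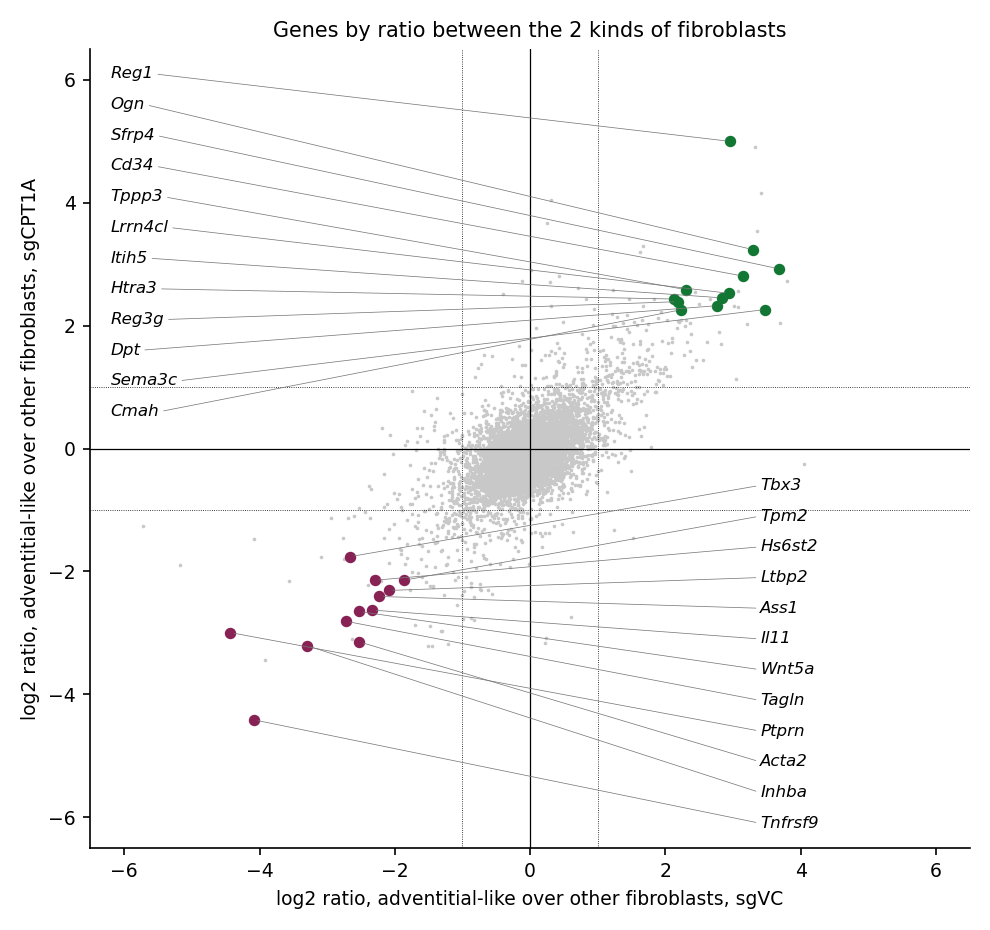
Each point is a gene with at least 50 UMIs in both libraries, by its log2 ratio of CPM in adventitial-like over other fibroblasts in sgVC (x axis) and sgCPT1A (y axis). Dotted lines mark 2-fold. Among genes with at least 50 CPM in the higher group in both libraries, the 12 highest (green) and 12 lowest (purple) by the ratio nearest to 0 are labelled, among them Ogn (3.29 and 3.24) and Tnfrsf9 (-4.08 and -4.42).

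Complement genes were mostly higher in members. Complement is a cascade of plasma proteins that tags cells for uptake or lysis, and fibroblasts make several of its early components and regulators. Of 16 genes listed, 9 of 13 measured in sgVC and 13 of 14 in sgCPT1A were at least 1.5-fold higher, and 0 and 1 at least 1.5-fold lower, with median log2 ratios of 0.82 and 0.91. C3, the central component, stood at 3758 CPM in sgVC members against 1320.1 in the other fibroblasts, and at 3268 against 1346 in sgCPT1A. Cd55, which speeds the decay of the convertases that cleave C3, stood at 243 against 35.0 and 188 against 50.6 CPM. Both were higher in members of each library, by log2 ratios of 1.51 and 1.28 for C3 and 2.80 and 1.89 for Cd55. Serping1, the C1 inhibitor, differed less, by 0.59 and 0.61.

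Small proteoglycan and matricellular genes had median log2 ratios of 0.88 and 0.92, with 10 of 18 and 12 of 20 measured at least 1.5-fold higher and 3 and 1 lower. The listed genes differed among themselves. Spon2, a secreted spondin, gave 2.44 and 2.55, while the most widely read ones were nearly level, Dcn at 0.40 and 0.11 and Bgn (biglycan) at -0.08 and 0.18. Elastic fibre and microfibril genes, to which Mfap4 is related by function, had medians of 0.52 and 0.55 (7 and 8 of 16 higher, 1 and 2 lower), led by Efemp1 (fibulin-3) at 1.94 and 2.23. Fibrillar collagens and their processing enzymes had medians of -0.05 and -0.13, with 1 and 2 of 24 higher, close to the values of all genes. Among chemokines, Cxcl12, the ligand of Cxcr4, stood at 1919 against 824 CPM in sgVC and 2607 against 1301 CPM in sgCPT1A, log2 ratios of 1.22 and 1.00. With the limit at 0.2% the sgCPT1A ratio of Cxcl12 was -0.13. Ccl2, an attractant of monocytes, gave 0.45 and 0.35, and -0.15 in sgCPT1A with the limit at 0.2%.

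Myofibroblastic genes were mostly lower in members. Of 25 genes listed, 14 of 23 measured in sgVC and 14 of 24 in sgCPT1A were at least 1.5-fold lower and 3 and 4 higher, with medians of -1.01 and -1.02. Acta2, the smooth muscle actin of contractile fibroblasts (chromosome 19, 34241090 to 34255590), stood at 57.2 CPM (46.0 to 70.3) in sgVC members and 329 CPM (312 to 347) in the other fibroblasts. In sgCPT1A it stood at 21.5 CPM (18.6 to 24.8) and 191 CPM (176 to 206). Members were 5.75-fold and 8.86-fold lower, and the intervals did not overlap in either library. Tagln, the actin-binding transgelin, stood at 32.4 against 214 and 27.5 against 193 CPM, with 47.1% of the UMIs of sgVC members in 1 cell. Tpm2, a tropomyosin, gave log2 ratios of -1.86 and -2.14, and the matrix glycoprotein gene Tnc (tenascin C) -1.11 and -2.14. Postn (periostin), also on that list, was higher in members, at 0.27 and 0.89.

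Inhba, Il11 and Wnt5a, which encode secreted ligands, were among the 12 genes with the lowest ratios. Inhba, whose product forms activin A, a ligand of the TGF-beta family, stood at 28.0 CPM in sgVC members against 275 in the other fibroblasts, and at 23.9 against 221 in sgCPT1A. Il11, a cytokine of the IL-6 family, stood at 34.3 against 174 and 17.0 against 105 CPM. Wnt5a, a ligand of non-canonical Wnt signalling, stood at 21 against 121 and 22 against 138 CPM. All 3 were lower in members of both libraries, by 9.85-fold and 9.24-fold for Inhba, 5.06-fold and 6.18-fold for Il11 and 5.77-fold and 6.29-fold for Wnt5a. Ltbp2, a latent TGF-beta binding protein of microfibrils, gave log2 ratios of -2.09 and -2.31. Over the whole TGF-beta list of 19 genes, 8 of 18 and 6 of 19 measured were at least 1.5-fold lower and 3 and 3 higher (medians -0.35 and -0.35), and the sgCPT1A median was 0.03 with the limit at 0.2%. Wnt modulators were split, with 4 and 6 higher and 3 and 3 lower of 11 and 13 measured. The other genes among the 12 lowest were Tnfrsf9, the costimulatory receptor 4-1BB (-4.08 and -4.42), Ptprn (-4.43 and -3.00), the transcription factor gene Tbx3 (-2.66 and -1.76), the heparan sulfate sulfotransferase gene Hs6st2 (-2.29 and -2.14) and Ass1, which makes argininosuccinate (-2.23 and -2.41). Tnfrsf9 and Ptprn rested on 6 and 4 UMIs in sgVC members.

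Cell cycle, hypoxia and glycolysis genes were lower in members as well. Of 22 cell cycle genes, 17 in sgVC and 21 in sgCPT1A were at least 1.5-fold lower and none was 1.5-fold higher (medians -0.92 and -1.70). Hmgb2, a chromatin protein of dividing cells, stood at 135 against 201 CPM in sgVC and 118 against 204 CPM in sgCPT1A. Barcodes outside the collagen limit, which include dividing tumour cells, had 1122 and 680.2 CPM of Hmgb2. Of the hypoxia response genes, which HIF factors induce at low oxygen, 11 of 17 and 7 of 16 measured were 1.5-fold lower and 0 and 1 higher (medians -0.69 and -0.53), with Ndrg1 at -0.57 and -0.64. Of 17 glycolysis genes, 8 and 7 were 1.5-fold lower and none higher (medians -0.55 and -0.57), among them Slc2a1, the glucose transporter GLUT1, at -1.13 and -1.17. Fatty acid oxidation genes, the pathway that CPT1A feeds, were nearly level, with medians of 0.21 and 0.00, 2 and 1 of 22 measured 1.5-fold higher and 1 and 0 lower.

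Inflammatory fibroblast genes were split, with 11 higher and 5 lower of 28 measured in sgVC and 10 and 6 of 28 in sgCPT1A (medians 0.44 and 0.18). Genes of the Col15a1-type fibroblasts that lie within organ parenchyma had medians of 0.44 in sgVC, with 6 of 13 higher and 1 lower, and 1.31 in sgCPT1A, with 11 of 13 higher and 0 lower. The adventitial genes outside the rule had 1.34 and 1.27. In sgCPT1A the higher genes were thus not particular to the adventitial list. Basement membrane genes were higher in 6 and 7 of 14 and lower in 1 and 0. Genes induced early by stress and tissue digestion had medians of 0.26 and 0.23, with 6 and 2 of 28 and 28 higher. Monocyte and lymphocyte attractants were higher in 4 and lower in 4 of 15 in sgVC and higher in 9 and lower in 2 in sgCPT1A, with medians of 0.35 and 0.70. With the limit at 0.2% the sgCPT1A median of these attractants was -0.15.

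Levels were also compared over bins of the summed share of the rule genes, on both sides of the limit. Cd34 stood at 12, 48.0, 312 and 507 CPM in sgVC fibroblasts with a share of 0 (86 cells), above 0 to under 0.05% (163), 0.05 to under 0.2% (104) and 0.2 to under 1% (25). In sgCPT1A the same bins held 25, 104, 220 and 141 cells and gave 19.6, 39.1, 174 and 429 CPM, and 1 further cell had over 1%. Cd34 was thus higher in each next bin of both libraries, also within the members. Acta2 ran the other way, at 363, 318, 62.3 and 32.8 CPM in sgVC and 386, 170.1, 25.6 and 13.6 in sgCPT1A. Inhba went from 310.2 to 10.9 CPM in sgVC and from 344 to 10.6 in sgCPT1A between the first and the last bin. The 2 libraries filled the bins unequally: 25 of 129 sgVC members and 142 of 362 sgCPT1A members lay at 0.2% or over.

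**Figure D3:**
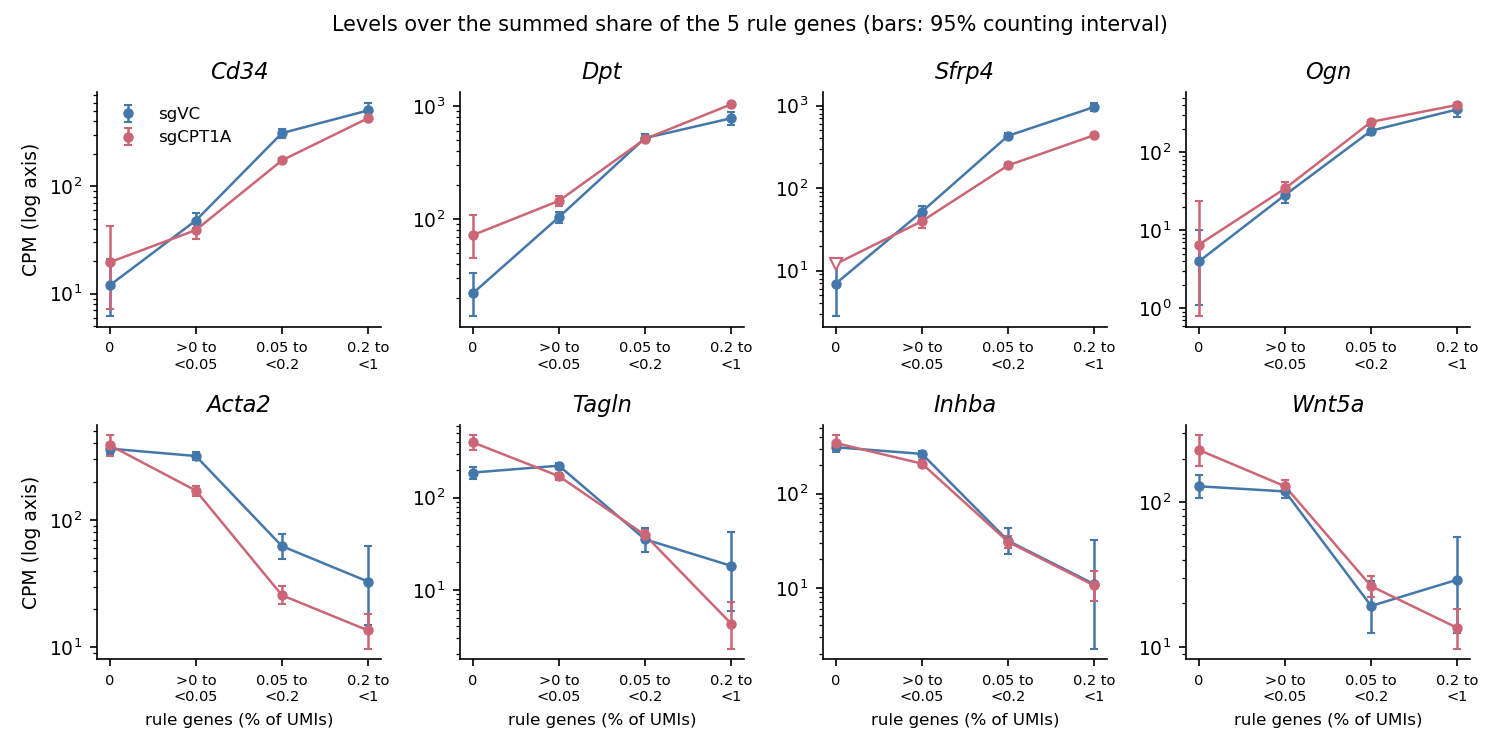
CPM (log axis) of 4 genes higher in members (Cd34, Dpt, Sfrp4, Ogn) and 4 lower (Acta2, Tagln, Inhba, Wnt5a) in fibroblasts binned by the summed share of the 5 rule genes (x axis, percent of UMIs), sgVC blue and sgCPT1A red, with 95% counting intervals; the open triangle marks the upper limit of Sfrp4, which had 0 UMIs in the first sgCPT1A bin. Cd34 goes from 12 to 507 CPM and Acta2 from 363 to 32.8 CPM over the 4 sgVC bins.

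Between the libraries, 9940 genes had at least 50 UMIs over both sets of members. Of these, 374 (3.76%) were at least 2-fold higher in sgCPT1A members and 215 (2.16%) at least 2-fold lower. In the other fibroblasts 264 of 9029 genes (2.92%) were 2-fold higher and 253 (2.8%) lower. At the 1.5-fold used for lists, 13.5% of all genes with at least 20 UMIs were higher and 13.4% lower in sgCPT1A members. The same shares in the other fibroblasts were 13.2% and 12.2%, with a median of -0.01. The adventitial genes outside the rule were close to the other genes, with a median log2 ratio of 0.03 beside -0.06 over all genes, 2 of 30 at least 1.5-fold higher and 4 lower. Their most unequal members were Scara5, at 24.1 CPM in sgVC and 54.5 in sgCPT1A members, and Pcolce2, a procollagen C-proteinase enhancer, at 245 and 103. Under alternative processing the log2 ratio of Scara5, 1.18, ran from 0.27 to 2.03. That of Pcolce2, -1.26, ran from -1.67 to -0.80. Sfrp4 was lower in sgCPT1A members, by a log2 ratio of -0.94.

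Interferon gamma-induced genes were lower in sgCPT1A members. Interferon gamma, made chiefly by T and NK cells, induces chemokines, guanylate-binding proteins and the antigen-presentation machinery in many cell types, fibroblasts among them. Of 30 listed genes, 15 of 27 measured were at least 1.5-fold lower and none was 1.5-fold higher, with a median of -0.65. In the other fibroblasts 19 of 26 were lower and none higher, with a median of -0.97. The median in members was 0.03 with the limit at 0.2%, which leaves 25 sgVC cells, and -0.69 in members at 0.05 to under 0.2% alone, an alternative chosen after seeing the data.

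Cxcl10, which draws T cells through Cxcr3 (chromosome 5, 92346638 to 92348889), stood at 1924 CPM (1857 to 1994) in sgVC members and 719 CPM (701 to 736) in sgCPT1A members, 2.68-fold lower. In the other fibroblasts it stood at 1189.6 and 287 CPM. The order was reversed in barcodes outside the collagen limit, with 292 CPM for sgVC and 1465 for sgCPT1A. Gbp4, a guanylate-binding protein, stood at 50.8 CPM in sgVC members, with 31.2% of UMIs in 1 cell, and 13.2 in sgCPT1A members. Its log2 ratio of -1.95 was 0.16 with the limit at 0.2%. Iigp1, an immunity-related GTPase, stood at 381 and 241 CPM in members and 377 and 79.5 in the other fibroblasts, so members were close to the others in sgVC (log2 ratio 0.02) and higher in sgCPT1A (1.6). Its log2 ratio between the libraries in members, -0.66, was 0.46 with the limit at 0.2%. Guanylate-binding proteins and immunity-related GTPases are families of close paralogs, among which reads can be split. Ifit1, an RNA-binding protein induced by type I interferon, stood at 186 and 66.0 CPM in members. The type I list as a whole had 6 of 33 measured lower and 2 higher (median -0.22), and the median was 0.13 with the limit at 0.2% and 0.02 after thinning.

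The upstream sequence of Cxcl10 and Ifit1 is shown because both genes lay among the 12 lowest ratios between the libraries. That ranking took genes with at least 50 CPM where higher and no higher level outside the collagen limit in that library. Both also belong to lists whose induction runs through known DNA motifs. RefSeq promoter windows of GRCm38.p6 were matched by symbol, and the 250 bases before the start were searched on both strands for the core of the interferon-stimulated response element, GAAA repeated after any 2 bases. The stretches below are written 5′ to 3′ on the gene's strand with the match in capitals, and the pair from Ifit1 overlaps.
Cxcl10 (chr5:92349083-92349112, minus strand): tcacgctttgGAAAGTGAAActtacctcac
Ifit1 distal (chr19:34640775-34640804, plus strand): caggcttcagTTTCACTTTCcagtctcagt
Ifit1 proximal (chr19:34640794-34640823, plus strand): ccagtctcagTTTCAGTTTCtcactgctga
The match began 213 bases before the start of Cxcl10, and 104 and 85 bases before that of Ifit1, where it reads as the reverse complement. The repeat of GAAA was in 11 of 20 matched genes of the interferon gamma list (55%) and 9 of 25 of the type I list (36%), beside 821 of 27025 promoters in all (3.04%). Another motif, TTC followed after any 3 bases by GAA, was searched in the same windows. It was in 9 of 20 genes of the interferon gamma list (45%), 5 of 25 of the type I list (20%) and 7.18% of all promoters. Irf1 held a match to this motif, which began 90 bases before its start. Gbp4, which met the same conditions, gave no stretch with the repeat of GAAA, and neither did Iigp1, Cxcl9 and Irf1, which were also searched. Whether Gbp4, Iigp1 and Cxcl9 had a matched window is not given here. A match describes the letters and is no measured binding site.

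MHC class I genes, which encode the presenting molecules and the peptide supply for CD8 T cells, had a median of -0.51 in members, with 6 of 18 at least 1.5-fold lower in sgCPT1A and none higher. With the limit at 0.2% that median was 0.08. The other fibroblasts gave -0.78, with 14 lower. The most abundant ones differed little in members: B2m stood at 2077 and 1883 CPM and H2-D1 at 2491 and 2112, both with a ratio of 0.19 in favour of sgCPT1A at the 0.2% limit, while Psmb9, an immunoproteasome subunit, stood at 121 and 55.7. Barcodes outside the collagen limit had 2552 and 3243 CPM of B2m. Class II genes were few in both libraries: Cd74, the invariant chain, stood at 102 and 23.2 CPM, with 34.8% of the sgVC UMIs in 1 cell, against 574 and 871 CPM outside the collagen limit. The antigen-presenting fibroblast list, which rests on such genes, had a median of -2.53 (7 of 8 lower, 1 higher). It was -0.63 without barcodes that held any UMI of Ptprc or were rich in S100a8 and S100a9, and 0.86 with the limit at 0.2%. The leukocyte markers summed to 149 CPM in sgVC members and 97.6 CPM in sgCPT1A members, and 3 of 6 were at least 1.5-fold lower in sgCPT1A (median -0.61). Of the macrophage markers outside the rule, 2 of 3 measured were lower (median -1.01).

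Attractants of monocytes, eosinophils and lymphocytes were lower in sgCPT1A members or differed by less than 1.5-fold, with 8 of 17 measured at least 1.5-fold lower, none higher and a median of -0.28. Ccl11, eotaxin (chromosome 11, 82057823 to 82062955), stood at 1606 CPM (1544 to 1670.1) in sgVC members and 527 CPM (512 to 542) in sgCPT1A members, 3.05-fold lower. Barcodes outside the collagen limit had 4.51 and 32.2 CPM of Ccl11, and the other fibroblasts 1193 and 324. Ccl2 stood at 4039.7 and 1993 CPM, 2.03-fold lower. Cxcl12 had the opposite sign, at 1919 and 2607 CPM. Cxcl14 stood at 471 and 312 CPM in members and 569 and 114 in the other fibroblasts. Its log2 ratio in members, -0.59, was 0.16 with the limit at 0.2%. In those other fibroblasts the attractant list had a median of -1.64, with 11 of 13 lower and 1 higher.

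The acute-phase genes Saa3 and Hp were higher in sgCPT1A members, while neutrophil attractants were split. Saa3, a serum amyloid A of inflamed stroma, stood at 18936 CPM in sgVC members and 41395 CPM in sgCPT1A members, a log2 ratio of 1.13, with 99.8 and 2590.3 CPM outside the collagen limit. Hp, haptoglobin, stood at 998 and 2611 CPM in members, 2.62-fold higher, and 657 and 2683 in the other fibroblasts. Its log2 ratio in members, 1.39, was 0.60 under the alternative that lowered it most. Cfb, complement factor B of the alternative pathway, stood at 118 and 319 CPM in members, 2.70-fold higher, while C3 stood at 3758 and 3268. Cxcl5, a ligand of Cxcr2 on neutrophils, stood at 941 and 1626 CPM, a log2 ratio of 0.79 that was -0.58 with the limit at 0.2%, and Cxcl1, another, at 1708 and 1388. In the other fibroblasts the neutrophil attractant list had 7 of 12 measured 1.5-fold higher in sgCPT1A and 0 lower, with a median of 0.98. In members it had 6 of 12 measured 1.5-fold higher and 3 lower, with a median of 0.66. That median was -0.39 once free RNA was subtracted, estimated from S100a8 and S100a9 at 9.29% of the UMIs of sgVC members and 1.53% of those of sgCPT1A members. The summed neutrophil markers, 193 CPM in sgVC and 569 in sgCPT1A members, were also higher in sgCPT1A.

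Cell cycle genes had a median of -0.76 in members, with 11 of 21 measured at least 1.5-fold lower in sgCPT1A and none higher. This did not hold under 3 of the alternatives: the median was 0.06 with the limit at 0.2%, 0.08 with Pi16 out of the rule and 1.03 with free RNA subtracted. In the last, a group left with no UMI of a gene was put at a floor of 3 UMIs, so that median can rest on bounds. The amount subtracted came from S100a8 and S100a9, and tumour epithelial markers give a lower one in sgVC members. Ube2c, a ubiquitin-conjugating enzyme of mitosis, stood at 62.9 CPM in sgVC members, with 50.5% of UMIs in 1 cell, and 13.4 in sgCPT1A members, against 788 and 21.2 CPM outside the collagen limit.

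Other genes with low ratios in sgCPT1A members were not of 1 list. Lmcd1, a LIM domain protein (chromosome 6, 112273758 to 112330425), stood at 81.3 CPM (67.8 to 96.7) in sgVC members and 10.0 CPM (8.05 to 12.3) in sgCPT1A members, 8.11-fold lower. In the other fibroblasts it stood at 69.7 and 89.7 CPM. Car4, a carbonic anhydrase anchored to the cell surface, stood at 498 and 87.0 CPM in members and 501 and 319 in the other fibroblasts. In sgVC, members and other fibroblasts thus lay close in both genes (log2 ratios 0.22 and -0.01), while in sgCPT1A the members were lower (-3.16 and -1.88).

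Aldh1a2, which makes retinoic acid, stood at 101 and 14.2 CPM in members and 71.9 and 3.41 in the other fibroblasts. The collagen VI chain gene Col6a5 stood at 162 and 28.7 CPM in members, and Hpgd, which breaks down prostaglandins, at 136 and 44.3. With the limit at 0.2% the log2 ratio of Hpgd, -1.62, was 0.24. Ltc4s, leukotriene C4 synthase, stood at 84.5 and 31.3 CPM. Fabp4 and Crabp1, carriers of fatty acids and retinoic acid, also lay among the 12 lowest ratios, at 146 and 27.6 and at 322 and 97.6 CPM. A single sgVC cell held 56.8% of the Fabp4 UMIs and 42.2% of the Crabp1 UMIs, and without the richest cell of each library, an alternative chosen after seeing the data, their log2 ratios were -1.33 and -1.11. With the limit at 0.2% that of Fabp4 was -0.14, and with the collagen limit at 5% that of Crabp1 was -0.33, so neither difference held under all alternatives. Of 16 retinoid genes, 3 were 1.5-fold higher and 7 lower (median -0.14), and the median was 0.27 with the collagen limit at 5%, 0.25 after thinning and 0.09 without Mfap4 in the rule.

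Genes with high ratios in sgCPT1A members included secreted and matrix genes. Mgp, matrix Gla protein, an inhibitor of calcification (chromosome 6, 136872435 to 136875823), stood at 31.8 CPM (23.6 to 41.9) in sgVC members and 90.9 CPM (84.8 to 97.4) in sgCPT1A members. In the other fibroblasts it had the opposite order, at 34.5 and 13.7 CPM, and outside the collagen limit it stood at 373 and 6.23 CPM. Col15a1, a basement membrane-zone collagen (chromosome 4, 47208161 to 47313167), stood at 113 and 233 CPM in members and 193 and 94.4 in the other fibroblasts. The members were therefore below the other fibroblasts in Col15a1 in sgVC (log2 ratio -0.77) and above them in sgCPT1A (1.31). Without Pi16 in the rule the log2 ratio of Mgp in members was 0.69 and that of Col15a1 0.53. With free RNA subtracted the log2 ratio of Mgp was 5.46, a bound and no measured ratio. No Mgp UMI was then left in sgVC members, which were put at a floor of 3 UMIs.

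Mmp11, stromelysin 3, stood at 37.5 and 100.2 CPM in members, and at a log2 ratio of 0.56 with the limit at 0.2%. Dpep1, a surface dipeptidase, stood at 31.1 and 84.7 CPM, Hmcn1, the matrix protein hemicentin, at 28.6 and 68.1, and the growth factor gene Mdk (midkine) at 61.6 and 142. Cdkn1c, the cell cycle inhibitor p57, stood at 92.1 and 226 CPM, 2.45-fold higher. The transcription factor gene En1 stood at 23.5 and 55.2 CPM, and Ctla2a, a cysteine protease inhibitor, at 90.2 and 278. These genes were higher in the other fibroblasts of sgCPT1A too, by log2 ratios between 0.78 (Dpep1) and 1.86 (En1). The small RNA gene 7SK stood at 190.0 and 779 CPM in members and 9.52 and 171 outside the collagen limit, and Ndufb4, a respiratory chain subunit, at 20.3 and 54.9 in members.

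**Figure D4:**
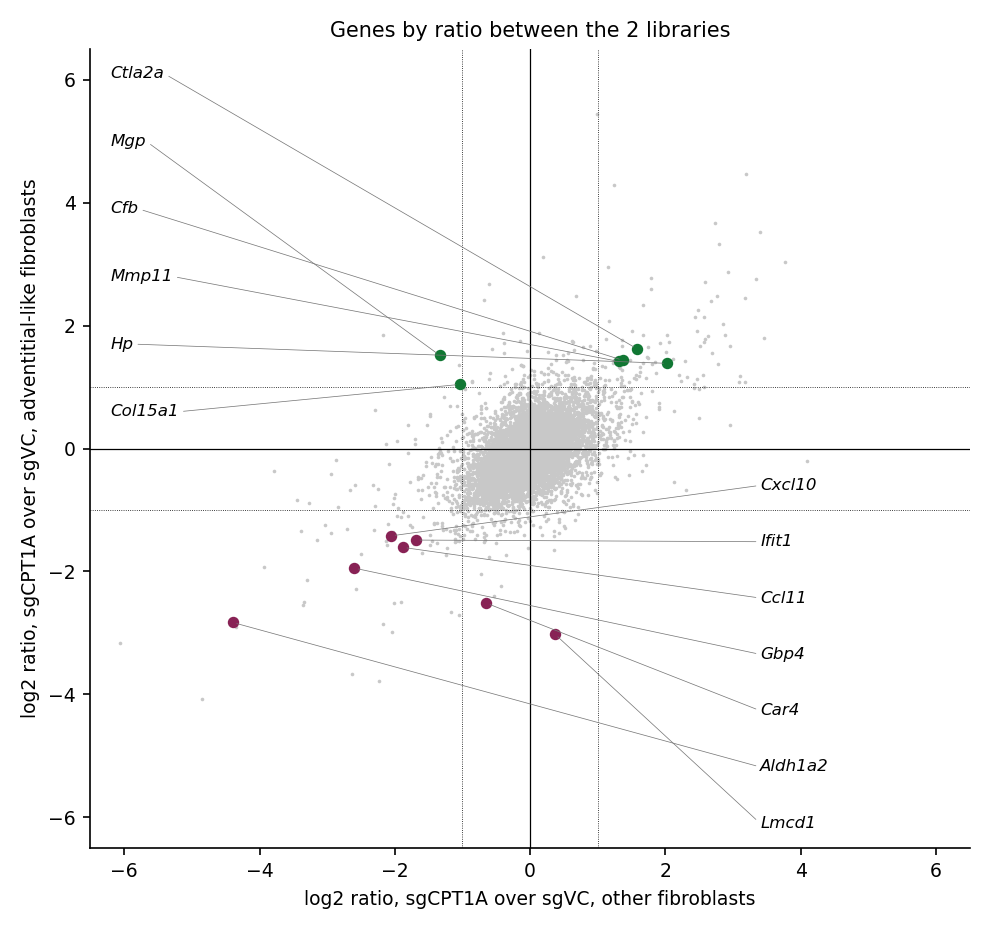
Each point is a gene with at least 50 UMIs over both libraries in each kind of fibroblast, by its log2 ratio of CPM in sgCPT1A over sgVC in the other fibroblasts (x axis) and the adventitial-like fibroblasts (y axis); dotted lines mark 2-fold and a selection of the named genes is labelled. Mgp and Col15a1 are higher in members and lower in the others, and Lmcd1 lies low in members (-3.02 against 0.37).

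Among the largest differences between the 2 kinds of fibroblasts in their library ratios were also Igfbp5, an insulin-like growth factor binding protein, at 0.38 in members and -1.53 in the others, and the phospholipase gene Pla1a, at 0.15 and -1.69. Reg1 was lower in both, at -1.34 and -3.39. On the other side lay C1qtnf3, at 1.18 and 3.10, Parm1, at -0.11 and 1.67, and Saa1, at -0.20 and 4.09. A single cell held 69.9% of the Saa1 UMIs of sgVC members, and without the richest cell of each library its ratio in members was 1.36. The differences were not tested.

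**Figure D5:**
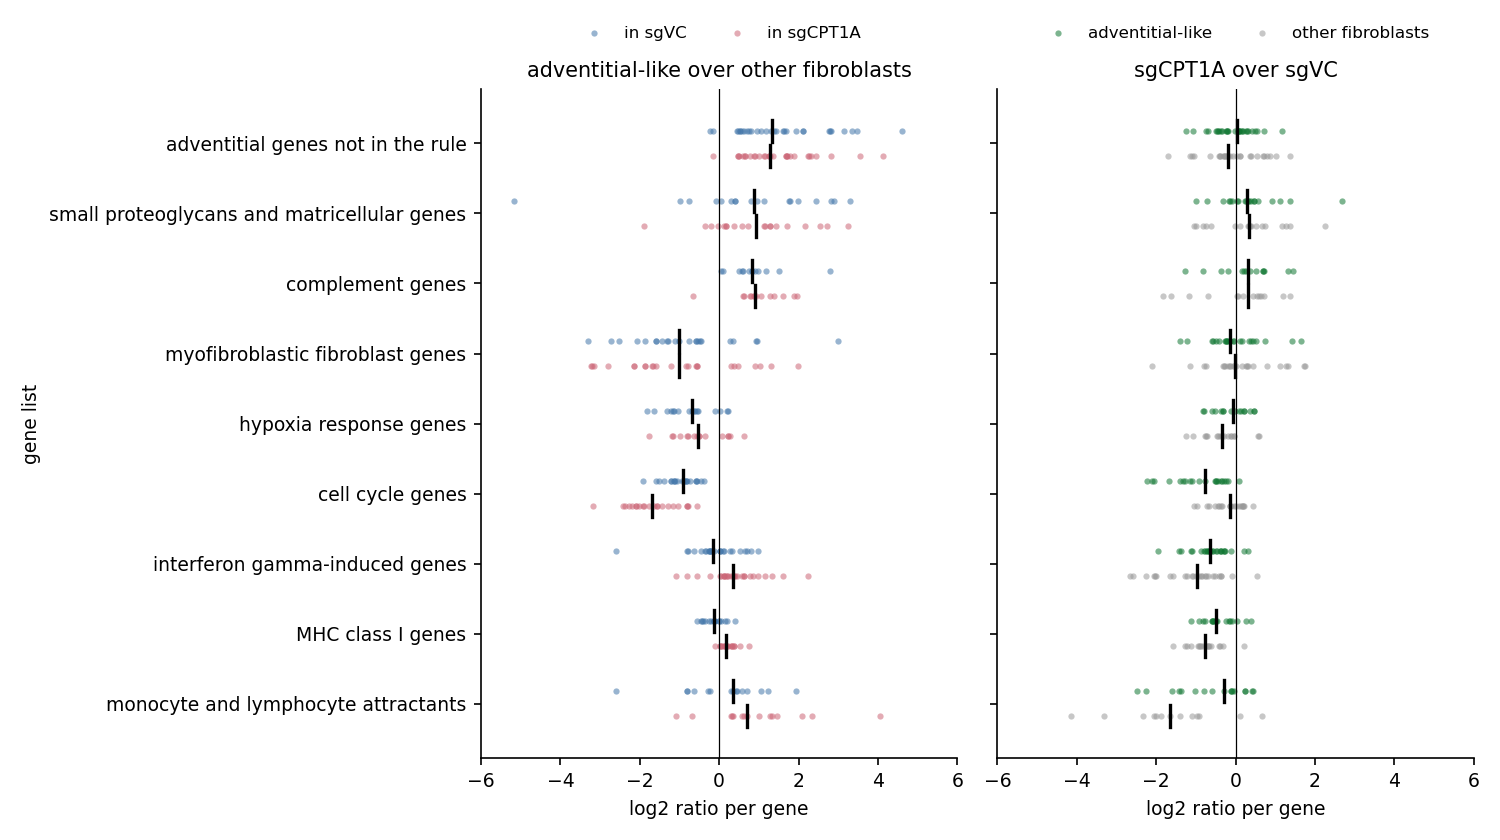
Log2 ratios per gene (x axis; points) for 9 gene lists, with the median as a black bar: left, adventitial-like over other fibroblasts in sgVC (blue) and sgCPT1A (red); right, sgCPT1A over sgVC in adventitial-like (green) and other fibroblasts (grey). Adventitial genes outside the rule centre on 1.34 and 1.27 on the left and on 0.03 in members on the right, where interferon gamma-induced genes centre on -0.65.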

How the data were processed

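Single-cell RNA-seq counts of whole 4T1 tumours were analysed in 1 sgVC and 1 sgCPT1A library. The deposited matrices hold raw UMI counts per gene and barcode that the authors made with Cell Ranger 7.1.0, per the file headers; the submitters' processing notes name GRCm38 and Seurat 4.1.0. The annotation release is not given in the sources used here. Gene coordinates come from GENCODE M21, which matched 52081 of 55357 gene identifiers.

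Barcodes were kept and classed by the shares of UMIs given in the report, with no clustering. The members and the gene lists were chosen with earlier results of these data known. Counts were summed over the cells of a group and divided by the group's total, with exact Poisson intervals for levels, Clopper-Pearson intervals for shares and conditional binomial intervals for ratios. With 1 library a group no test was run. Ratios needed at least 50 UMIs over both groups (20 in lists). A group with no UMI of a gene was put at 3 UMIs, so such a ratio is a bound.

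Genes named were those of the rule, the 12 highest and 12 lowest ratios of each comparison with at least 50 CPM where higher (between libraries, also no lower there than in barcodes outside the collagen limit), the 6 highest and 6 lowest differences between member and other-fibroblast library ratios, and up to 4 genes a list. Mitochondrial, ribosomal protein, predicted, haemoglobin and sex-linked genes stayed out. Doublets were called with Scrublet through scanpy 1.11.5 and kept in the counts. Python 3.11.15, numpy 2.4.6, scipy 1.17.1 and pandas 2.3.3 were used, and the ratio code was tested on simulated data. Alternatives changed the limits, the rule genes, the scaling, the depth (barcodes thinned to 4000 UMIs), the filters and free RNA, 1 at a time.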

Additional observations from a re-analysis of the deposited data

Results flagged for a closer look

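The libraries' ratios had opposite directions in the 2 kinds of fibroblasts, each at least 2-fold, for Col15a1 and Mgp. For Col15a1 the log2 ratio of sgCPT1A over sgVC was 1.04 in members and -1.04 in the other fibroblasts, a difference of 2.08. For Mgp it was 1.52 and -1.33, a difference of 2.85, and sgVC barcodes outside the collagen limit held 373 CPM of Mgp. Free RNA was estimated at 9.29% of the UMIs of sgVC members and 11.1% of those of the other sgVC fibroblasts. At these shares, the level outside the collagen limit gives at least as much Mgp as either group held. The shares rest on S100a8 and S100a9 alone. Tumour epithelial markers, some of them capped by the rule, summed to 40.7 and 68.9 CPM in those groups and 3390 CPM outside the collagen limit in sgVC. At the lower shares that these markers give, free RNA holds less Mgp than either group did. How much of the sgVC Mgp was made by fibroblasts was not tested. With 1 library a group neither difference was tested.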

How the results depend on the processing

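The share of members among fibroblasts had a log2 ratio of 1.11 between the libraries, and of 1.41 with the limit at 0.1%, 2.13 at 0.2% and 1.95 with Pi16 out of the rule. Among all kept barcodes it was 2.0, and 3.02 with the limit at 0.2%, 2.84 without Pi16, 2.41 with the collagen limit at 5% and 3.19 after thinning, which keeps barcodes of at least 4000 UMIs and so has another denominator. The 168 genes at least 2-fold higher in members of both libraries became 79 with the limit at 0.2%, 109 without Pi16, 91 with the collagen limit at 5% and 59 after thinning. The 131 lower ones became 78 with the collagen limit at 5%, 28 after thinning and 210 with genes of at least 20 UMIs. Between the libraries, the 374 genes higher in sgCPT1A members became 140 after thinning and 738 with genes of at least 20 UMIs, and the 215 lower ones 429 with at least 20 UMIs and 328 with the mean of the cells' own shares. Thinning leaves fewer UMIs per gene, and the lower UMI minimum tests more genes.

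Of 104 named ratios of at least 2-fold, 69 stayed so in the same direction under every alternative run, and 98 kept their sign. With the limit at 0.2%, which leaves 25 sgVC members, the sign turned between the libraries for, among others, the medians of the antigen-presenting (0.86), MHC class I (0.08), type I interferon-induced (0.13), glycolysis (0.09), interferon gamma-induced (0.028) and cell cycle lists (0.060) and for Gbp4 (0.16), Psmb9 (0.043), Cd74 (0.93), Hpgd (0.24), Cxcl5 (-0.58), Iigp1 (0.46), Cxcl14 (0.16) and Ube2c (1.00), and between members and other fibroblasts of sgCPT1A for the antigen-presenting list (-0.16), the monocyte and lymphocyte attractants (-0.15) and Cxcl12 (-0.13). Without Mfap4 the sgCPT1A median of the antigen-presenting list was -0.41. Without Pi16 the cell cycle median was 0.080 and Ube2c 0.42. With free RNA subtracted the neutrophil attractants had a median of -0.39 and the cell cycle list one of 1.03. Ube2c then gave 2.66, a bound, since no UMI of it was left in sgVC members, which were put at 3 UMIs. The amount subtracted rests on S100a8 and S100a9. Tumour epithelial markers, some capped by the rule, give a lower one in sgVC members (40.7 CPM, against 3390 outside the collagen limit). The subtraction may thus be too large for genes of tumour cells. The cause of these turns was not tested. Depth limits the sgVC members, which held fewer UMIs per cell, and no replicate shows how far libraries of 1 group differ.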
